A study of Mus musculus with 4 samples.

Results

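The molar germ of the mouse was compared between the bud, at embryonic day (E) 12, and the bell, at E16. For each oligonucleotide of the array, the log2 ratio of E12 to E14 was subtracted from the log2 ratio of E16 to E14, which gives the log2 difference of E16 over E12 through the shared E14 reference. Non-control oligonucleotides well above background in the E12 or the E16 channel were kept. These were 25539 of 41174, and they stood for 17031 of the 27670 genes on the array.

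All RNA came from whole germs of the mandibular first molar of C57BL/6 mouse embryos, pooled per stage, and the labels name no allele and no agent. The E12 pool and the E16 pool were each labelled with Cy5 and hybridised together with the Cy3-labelled E14 pool, on 1 array per stage. The series holds 2 further arrays of the same kind, for E11 and E18. The number of germs or litters in a pool was not stated in the labels. A stage was 1 pool, so there is no replicate and no test, and every value below is a measured difference between 2 pools. The E12 array lay on one slide and the E16 array on the other, so slide and stage cannot be told apart, and the dyes were not swapped.

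A molar starts as a thickening of the oral epithelium that grows down as a bud into neural crest-derived jaw mesenchyme, folds over it as a cap around the enamel knot, and reaches the bell, when odontoblasts and ameloblasts begin to differentiate. Epithelium and mesenchyme signal to each other throughout by Shh, Wnt, Bmp and Fgf ligands. In a whole germ, fewer cells of a type and less RNA per cell cannot be told apart. The tooth identity of both pools was read from defining genes: Shh and Sp6 of the dental epithelium and Msx1, Pax9, Barx1 and Lhx8 of the dental mesenchyme were all well above background at E12 and at E16. Shh was dim at E12, with a Cy5 signal of 70.0 beside a median of 71.7 over the non-control spots of that array.

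Most of the genes that separated the stages were higher in the bell. At a threshold of 2-fold, 1095 of 17031 genes (6.43%) differed, 836 (4.91%) higher at E16 and 259 (1.52%) lower. These shares over all genes are the background for each list count below. At 8-fold or more there were 49 higher and 6 lower genes, and at 16-fold or more 11 and 3. Among the genes at least 2-fold apart, 76.3% were higher at E16. That share was 58.6% when each array's ratios were centred on their median, without the intensity-dependent curve (loess) used here, and 55.8% with the scanner software's own log ratios. The median centring moved the median of all genes from 0.0054 to -0.11 log2 units. Of the 1095 genes, 1003 kept a 2-fold difference in the same direction with median centring and 1086 with scanner ratios.

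E14 RNA was read on both arrays, which gave a measure of technical error in the Cy3 channel alone. A difference of E16 over E12 also carries the Cy5 error of both arrays, which this measure leaves out. The 2 E14 readings differed by a median of 0.0637 log2 units over genes, with a 99th percentile of 0.35. For 13 genes (0.0763%) they were 2-fold apart. For E16 over E12 the median absolute difference was 0.24, and 6033 genes lay beyond 0.35. The SD between repeat spots of 1 oligonucleotide, over 245 of them printed 10 times each, had a median of 0.067 on the E12 array and 0.056 on the E16 array. These spreads hold no variation between pools or litters. Of the 1095 genes, 998 were well above background at both stages, 88 at E16 alone and 9 at E12 alone.

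**Figure D1:**
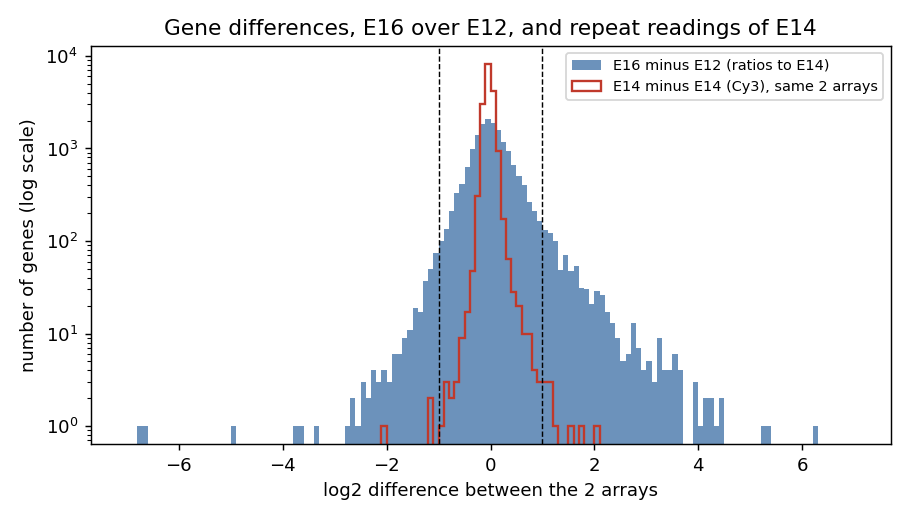
Number of genes (log scale) by log2 difference between the E16 and the E12 array, in bins of 0.1, for E16 minus E12, each as its ratio to E14 (filled), and for the E14 RNA in the Cy3 channel of the same arrays (outline). Dashed lines mark 2-fold. The E16 over E12 differences reach 6.22 and -6.73, whereas 13 genes of the E14 readings lie beyond 2-fold, and the right tail holds 836 genes against 259 on the left.

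The embryonic globins were the lowest genes at E16. These are the haemoglobin chains of primitive red cells, which the yolk sac makes first and which definitive red cells of the fetal liver later replace. Hbb-bh1 stood at 2.93 log2 units above E14 at E12 and at -3.79 at E16, a 106-fold drop (-6.73; SD of the E14 readings 0.09, n = 4). Hbb-y went from 0.57 to -6.03 (97.3-fold lower at E16) and Hba-x from 1.98 to -2.99 (31.3-fold lower). All 3 measured embryonic globin genes therefore fell, against 1.52% of all genes. The fall of Hbb-y lay almost wholly after E14, while Hbb-bh1 and Hba-x fell both before and after it. Such placing around E14, here and below, takes a gene to have no dye effect, which was not tested.

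The adult globins went the other way. Hbb-bt, an adult beta chain, rose from -2.16 at E12 to -0.32 at E16 (1.84), and Hba-a1, an adult alpha chain, stood at -1.64 and -0.85 (0.79, under 2-fold). Both were highest at E14 in the series. Near-identical adult copies may share these probes, so their values are uncertain as to the copy. Other red cell genes differed in direction: Slc4a1, the anion exchanger of the red cell membrane, fell from 0.68 to -1.30, and Hemgn, a nuclear protein of red cell precursors, was at least 1.69-fold higher at E12 in the Cy5 channel (difference -0.63). "At least" is used where a gene was well above background on 1 array. It sets the brighter Cy5 signal against the higher of the dimmer one and the lowest signal well above background, without the ratio to E14. It can therefore exceed the fold of the difference read through E14, which is the measure used for all counts and is given in brackets beside it. The list of 8 adult globin and late red cell genes had 1 member higher and 1 lower, and its median of 0.11 turned to -0.04 with median centring and to -0.53 with scanner ratios.

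Because these globins move together or apart, the 120 bases before their transcription starts are shown, from RefSeq on build GRCm38.p6 and read 5′ to 3′ on the sense strand. The windows are chr7:103853208-103853327 (minus strand) for Hbb-y, chr11:32276480-32276599 (plus) for Hba-x, chr7:103813924-103814043 (minus) for Hbb-bt and chr11:32283552-32283671 (plus) for Hba-a1. Capitals mark matches, on either strand, to 4 sets of letters known from globin promoters. They are TATAAA (the TATA box), its shorter form ATAAA, which overlaps it, CCAAT (the CCAAT box) and CCACCC (the CACCC box with a leading C).
Hbb-y: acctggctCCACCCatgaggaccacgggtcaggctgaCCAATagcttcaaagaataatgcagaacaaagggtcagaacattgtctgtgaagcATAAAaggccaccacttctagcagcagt
Hba-x: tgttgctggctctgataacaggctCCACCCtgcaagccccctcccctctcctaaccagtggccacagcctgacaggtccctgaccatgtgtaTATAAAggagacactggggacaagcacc
Hbb-bt: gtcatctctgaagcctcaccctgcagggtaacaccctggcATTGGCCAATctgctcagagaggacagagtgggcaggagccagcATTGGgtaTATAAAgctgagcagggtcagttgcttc
Hba-a1: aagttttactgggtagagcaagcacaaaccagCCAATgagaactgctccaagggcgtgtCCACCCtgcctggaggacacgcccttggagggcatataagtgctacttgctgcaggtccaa

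Both embryonic windows hold CCACCC, and so does that of the adult Hba-a1. Of the letters searched, the Hbb-bt window holds CCAAT and TATAAA, with the ATAAA inside it. It also holds CACCC without the leading C, which was not searched for and is not marked. Over all 32851 promoters of the RefSeq table, windows of this length held CCACCC in 16.45% of cases, CCAAT in 21.3%, TATAAA in 6.34% and ATAAA in 20.2%. Over the promoters of the measured genes, the shares were 20.1% for CCACCC, 23.5% for CCAAT, 3.58% for TATAAA and 10.7% for ATAAA. A match is a description of the letters and no measured site. A promoter was listed for 11047 of the 17031 genes.

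Several of the genes furthest above the bud are known from stratified epithelium. Ly6d, a surface protein of squamous epithelium, stood at -2.44 at E12 and 3.77 at E16, a 74.3-fold difference (6.22). Serpinb5, the epithelial serpin maspin, went from -3.61 to 1.76 (41.4-fold), Lgals7, a galectin of stratified epithelium, from -3.39 to 1.10 (22.5-fold), and Aqp3, a water and glycerol channel of basal epithelium, from -2.74 to 1.66 (21.1-fold). S100a14 (4.30) and Krt6a, a keratin of activated and oral epithelium (4.13), followed. Spink5, an epidermal inhibitor of serine proteases, was not well above background at E12 and at least 24.0-fold higher at E16 (4.26), and Krt23 was at least 18.4-fold higher (3.997).

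All 18 measured genes of the list of keratinizing oral epithelium were higher at E16, with a median of 2.79. By 2-fold or more, 16 were higher (88.9%, against 4.91% of all genes). Of the 18, 13 were well above background at both stages. The others were seen at 1 stage alone, and that filter favours a difference towards that stage, here and in every list below. With only probes above background at both stages the median was 2.78. The smallest differences were those of Sbsn (0.96), Tgm1, a crosslinking enzyme of the cornified envelope (0.97), Sprr1a (1.14) and Cnfn (1.21). Krt1, a suprabasal keratin, stood at -0.58 and 2.96 (3.54), but a dimmer Krt1 probe gave -0.23. Another 5 genes of the list, among them Ivl and Tgm3, were not well above background at either stage. The summed Cy5 signal of the list rose from 11.4 to 14.7 log2 units. At E18 most of these genes were back near E14: the list's median log2 ratio was 1.62 at E16 and 0.0203 at E18, with Krt1 at 0.24, Krt6a at -0.20 and Ly6d at 0.95, but Spink5 still at 3.19. Whether overlying oral epithelium was dissected with the E16 germs was not tested.

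The E14 readings of some of these genes were not constant. The E14 signal of Ly6d was 363 on the E16 array and 215 to 237 on the other 3 arrays, and that of Krt6a was 455 against 290 to 309, on the array where their Cy5 signals were 13336 and 5157. The ratio to E14 is lowered by this: read from the Cy5 channel alone, the differences were 7.09 for Ly6d and 4.85 for Krt6a. Its source was not tested.

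Basal keratins and junction genes were higher as well. Of 32 list members 22 were at least 2-fold higher at E16 and none lower, with a median of 1.52 and a summed signal of 15.5 log2 units at E12 and 17.9 at E16. Krt15, a keratin of basal progenitors, went from -1.97 to 1.66 (3.63), Pkp1, a desmosomal plakophilin, from -2.30 to 1.29 (3.59), Krt17 from -2.95 to 0.38 (3.33) and Krt5 from -2.16 to 1.09 (3.25). Krt14, the partner of Krt5, differed less (1.57), as did Cdh1, or E-cadherin (1.96). At the lower end were 3 claudins of tight junctions, Cldn4 (-0.59), Cldn3 (-0.57) and Cldn7 (-0.50), all under 2-fold. Every epithelial result below stands beside this rise of general epithelial markers, whose part in it was not tested.

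**Figure D2:**
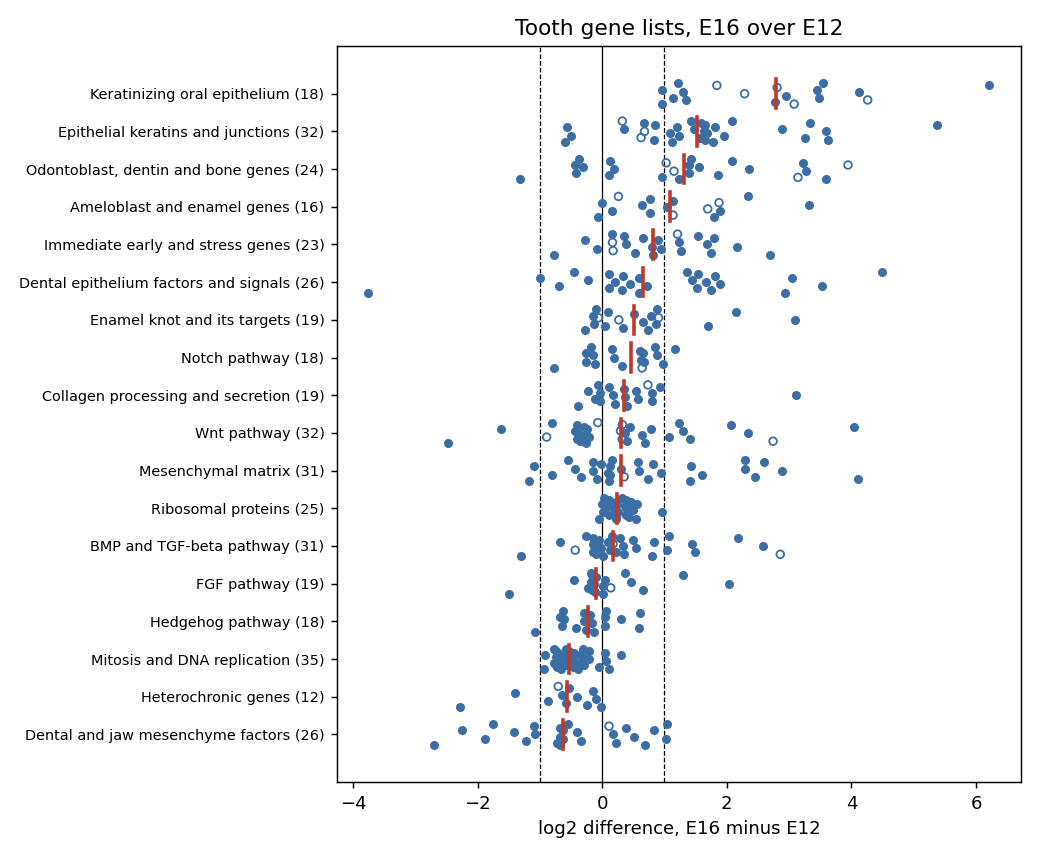
Log2 difference of E16 minus E12 (x axis) for each measured gene of 18 tooth lists, ordered by their median (red bar), with the number of measured genes in brackets. Filled points were well above background at both stages and open points at one, and dashed lines mark 2-fold. The keratinizing list has all 18 genes above 0, the mitosis list 31 of 35 below 0, and jaw mesenchyme factors have the lowest median, -0.63.

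Among factors and signals of the dental epithelium, 12 of 26 genes (46.15%, against 4.91% of all genes) were at least 2-fold higher at E16. Another 2 were lower (7.69%, against 1.52%), and the median was 0.65. Sp6, a zinc finger factor of the epithelium that forms enamel, stood at -2.86 at E12 and 1.64 at E16, 22.6-fold higher, while a dimmer Sp6 probe gave 1.40. Wnt10a, a Wnt ligand needed for tooth number, went from -2.96 to 0.57 (11.5-fold), Shh from -0.77 to 2.27 (8.23-fold) and Sostdc1, an inhibitor of Bmp and Wnt ligands, from -2.005 to 0.93 (2.93). Most of the Wnt10a rise came before E14, and most of the Shh rise after it.

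Fgf8 did the opposite. This epithelial ligand, which induces the tooth-forming mesenchyme, stood at 2.58 at E12 and -1.17 at E16, 13.5-fold lower, with the larger step before E14. A dimmer Fgf8 probe gave -0.53. Pitx1 was lower at E16 too (-1.003), and Prom1 (-0.70) and Lef1 (-0.45) were under 2-fold.

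Of 19 genes of the enamel knot and its targets, 3 (15.79%, against 4.91% of all genes) were higher by 2-fold and none lower (median 0.52). Msx2, a homeobox factor, went from -0.83 to 2.26 (3.09), Cdkn1a, the cell cycle inhibitor p21, from -1.86 to 0.29 (2.15) and Fst, the activin antagonist follistatin, from -1.65 to 0.04 (1.69). Bmp4, which both tissues make in turn, stood at -0.24 and -0.15 (0.09). This difference was below 0.35, the 99th percentile of the differences between the E14 readings, which hold Cy3 error alone. Axin2, a Wnt target, was at -0.27.

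Of 16 genes of ameloblasts and enamel, 9 (56.25%, against 4.91% of all genes) were at least 2-fold higher and none lower (median 1.09). Of the 16, 12 were well above background at both stages, and with only such probes the median was 0.90. The list was led by Col17a1, a hemidesmosome collagen (3.32), Lamb3 (2.34) and Lama3 (1.89), chains of the basement membrane laminin of epithelium. The adhesion receptor gene Adgrf4 was at least 5.18-fold higher (1.88). Odam, an ameloblast-associated protein, was at least 2.40-fold higher (1.14). Of the enamel matrix genes, Ambn, or ameloblastin, stood at 0.18 and 0.82 (0.64), and the brightest Amelx (amelogenin) probe at 0.11 and 0.10, while a dimmer one gave 1.496. Enam was not well above background at either stage. Klk4, a protease of enamel maturation, stood at -0.06.

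Genes of odontoblasts, dentin and bone were mostly higher in the bell. Of 24 members 15 (62.5%, against 4.91% of all genes) were higher by 2-fold and 1 (4.17%, against 1.52%) lower (median 1.31). Of the 24, 20 were well above background at both stages, and with only such probes the median was again 1.31. Omd, the mineral-binding proteoglycan osteomodulin, was at least 17.2-fold higher at E16 (3.95), and Ibsp, or bone sialoprotein, at least 10.5-fold (3.14). Spp1, or osteopontin, went from -3.06 to 0.53 (3.59), Smpd3, a sphingomyelinase needed for mineralisation, from -1.66 to 1.61 (3.27) and Alpl, the alkaline phosphatase of mineralising cells, from -2.41 to 0.81 (3.22). Dspp, the main non-collagen protein of dentin, was at least 2.48-fold higher (1.15) and Dmp1 at least 2.28-fold (1.03). Both were dim at E16, with Cy5 signals of 166.5 and 139.1. At E18 neither was well above background, and they stood at 0.15 and -0.03 against E14. Col1a1, the main collagen of dentin and bone, went from -2.28 to -0.41 (1.87, and 0.46 on another probe).

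The regulators of this lineage were mixed. Sp7, or osterix, was at -0.98 and 0.41 (1.39), whereas Runx2, which acts before it, was at -0.38 and -0.69 (-0.30). Pth1r, the receptor for parathyroid hormone-related protein, was the 1 lower member (-1.31), with Bmp6 (-0.44) and Nes (-0.38) also below 0. Bone could also give such a signal: among 6 measured markers of bone and periosteum 3 were higher, among them Ibsp, which the dentin list holds too. Of the 6, 4 were well above background at both stages. Mmp13, a collagenase that remodels bone, was at least 8.82-fold higher (2.74). The part of bone in the dentin list was not tested.

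Of 26 listed factors of the jaw and dental mesenchyme, 8 (30.8%, against 1.52% of all genes) were lower in the bell by 2-fold, 2 were higher and 16 were under 2-fold (median -0.63). Prrx1, a homeobox factor of limb and jaw mesenchyme, stood at -0.02 at E12 and -2.72 at E16, 6.49-fold lower. Lhx8 went from 0.86 to -1.38 (-2.24), Lhx6 from 0.97 to -0.90 (-1.87), Msx1, the mesenchymal partner of Bmp4 signalling, from -0.03 to -1.79 (-1.75) and Pax9 from 0.03 to -1.20 (-1.23). Barx1, a factor of molar identity, differed less (0.34 and -0.29). Prrx1, Msx1 and Pax9 lay near their E14 level at E12 with the loess ratios used here.

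Not all factors of this list fell. Dlx2 (1.05) and Alx1 (1.02) were higher at E16, Tfap2a (0.83) and Dlx5 (0.69) lay above 0, and Dlx2 and Tfap2a are known from epithelium as well. The probes of some of these genes differed: the 6 Prrx1 probes ranged from -2.70 to -0.31 and the dimmer Lhx6 probe gave -0.57. Other low genes were Asb4 (-3.70), a ubiquitin ligase adaptor, Eya1 (-2.73), Cxcl12, a chemokine of mesenchyme (-2.63), and Fndc3c1 (-2.52). A dimmer probe gave -0.78 for Asb4, -0.40 for Eya1, -0.20 for Cxcl12 and -1.06 for Fndc3c1. Cyp26b1, a retinoic acid hydroxylase, stood at 1.17 and -2.17 (10.1-fold lower). Tbx15, a T-box factor of mesenchyme, was at least 4.20-fold lower at E16 in the Cy5 channel (-1.68, and -0.52 on another probe). Among other genes seen at E12 alone, the differences were -1.15 for Fxyd7, -0.97 for Hsd3b2, -1.07 for Agtr1a (-0.14 on another probe) and -1.0952 for Kel.

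**Figure D3:**
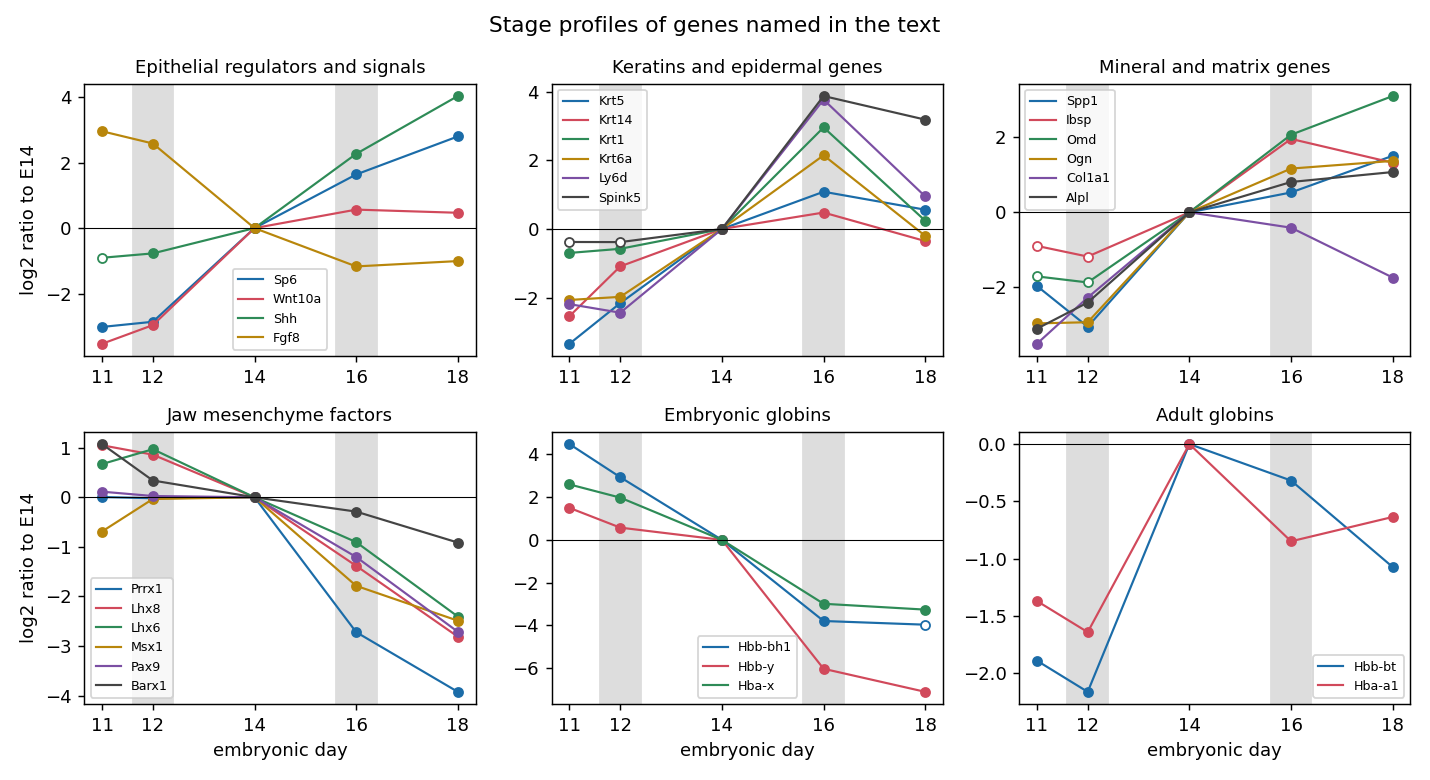
Log2 ratio to E14 (set to 0) by embryonic day for genes named in the text, 1 array per stage, with E12 and E16 shaded. Open points were not well above background in Cy5. Sp6 and Shh go on rising to E18, Ly6d, Krt1 and Krt6a peak at E16, jaw mesenchyme factors are lower at E16 than at E14, and Hbb-y drops to -6.03 at E16.

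The matrix of the mesenchyme changed in part. Of 31 genes 9 were higher by 2-fold (29.03%, against 4.91% of all genes) and 2 lower (6.45%, against 1.52%), with a median of 0.30. Ogn, or osteoglycin, a small leucine-rich proteoglycan, went from -2.94 to 1.17, 17.2-fold higher, followed by Col8a1 (2.89), Col14a1 (2.60) and Loxl1, a crosslinking enzyme of elastin (2.46). Mfap4 (-1.18) and Fbn2, a fibrillin of embryonic microfibrils (-1.10), were lower, and Fn1, or fibronectin, was at -0.80. Among 19 genes of collagen processing, Adamts2, the procollagen N-proteinase, passed 2-fold (3.12), with the others between -0.38 and 0.93. That is 5.26% of the list, near the 4.91% of all genes higher at E16. Thbs4, a thrombospondin, was 12.9-fold higher (3.69), though a dimmer probe gave 1.81, and Matn4, a matrilin, was at least 10.6-fold higher (2.996).

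Of 32 Wnt pathway genes 8 were higher by 2-fold (25.0%, against 4.91% of all genes) and 2 lower (6.25%, against 1.52%). The list as a whole was split, with 17 genes above 0 and 15 below. Its median was 0.31, and 0.08 with only probes above background at both stages. The highest and the lowest member, Wif1 and Frzb, were secreted inhibitors. The ligand gene Wnt10a (3.53) was read with the dental epithelium above. Wif1, which binds Wnt ligands, went from -2.35 to 1.69 (4.04, 16.5-fold), Sfrp4 was at least 8.21-fold higher (2.74), and Dkk1, which blocks Lrp co-receptors, went from -1.67 to 0.66 (2.34). Tcf7, a Wnt-responsive transcription factor, differed by 2.06. On the lower side, Frzb went from 0.61 to -1.86 (-2.48), Sfrp2 from -0.05 to -1.68 (-1.63) and Sfrp1 was at -0.80, while the ligand gene Wnt9b, seen at E12 alone, was under 2-fold (-0.89).

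In the BMP and TGF-beta pathway 7 of 31 members (22.58%, against 4.91% of all genes) were higher. The 1 lower member made 3.23%, against 1.52%, and the median was 0.17. Inhbb, an activin subunit, was at least 9.43-fold higher at E16 (2.86), Bambi, a decoy receptor, went from -0.33 to 2.25 (2.58), and Id4, a target of BMP signalling, from -0.65 to 1.53 (2.19). Acvr2b, an activin receptor, was the lower gene (-1.30). Of 18 hedgehog pathway genes besides the ligand Shh none was higher by 2-fold and 1 was lower. The feedback targets Hhip (0.61) and Ptch1 (0.30) lay above 0 while Gli3 was at -0.64. The lower one was Osr2 (-1.07), which the jaw mesenchyme list holds too.

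In the FGF pathway 2 of 19 members (10.53%, against 4.91% of all genes) were higher and 1 lower, with a median of -0.10. Fgf8 (-3.75), read with the dental epithelium above, is not among the 19. Fgfr2, the main FGF receptor of epithelium, went from -1.06 to 0.97 (2.03), and Fgfbp1, a carrier of FGF ligands, from -0.57 to 0.72 (1.29). Fgf13, an intracellular FGF homologue, was lower (-1.50). For Notch, 1 of 18 members (5.56%) passed 2-fold, near the background of 4.91%. It was the target Heyl (1.17), with Hey2 (0.98) and Notch2 (0.88) next and Notch3, the receptor of mural cells, lowest (-0.77).

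Genes of mitosis and DNA replication were lower at E16 by a small amount and together. None of 35 passed 2-fold, but 31 lay below 0, with a median of -0.52 beside 0.0054 over all genes. Cenpe, a kinetochore motor (-0.94), Ccne1, cyclin E1 (-0.91), Kif20a (-0.77) and Rrm2, which makes deoxynucleotides (-0.77), lay lowest, and Mki67 was at -0.66. Heterochronic genes, which mark early embryonic tissue, lay below 0 in 12 of 12 cases. Of these, 2 passed 2-fold (16.67%, against 1.52% of all genes lower at E16). Hmga2, a chromatin protein, went from 1.06 to -1.22 (-2.28, and -0.56 on another probe). Igf2bp1, an RNA-binding protein, went from 0.39 to -0.9995 (-1.39). Lin28b, a let-7 inhibitor, was at least 1.88-fold higher at E12 (-0.70, and -0.08 on another probe). Ribosomal protein genes had a median of 0.24, which turned to -0.01 with median centring.

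Markers of other cell types were read beside these results. Over all genes, 4.91% were higher at E16 by 2-fold and 1.52% lower. Endothelial genes had none of 18 past 2-fold (median -0.22), and 11 measured skeletal muscle genes none either, with 9 more not above background at both stages, Myod1, Ckm and Ttn among them. Macrophage genes rose in part, with 3 of 18 past 2-fold (median 0.62): Lyz2, lysozyme, stood at -1.87 and 0.79 (2.66) and Tyrobp, an adaptor of myeloid receptors, at -1.03 and 0.50 (1.53). Osteoclast genes did so too, with 3 of 12: Mmp9 (2.13), Acp5 (2.04) and Ctsk (2.02). Of these 12, 7 were well above background at both stages. The summed signal of the macrophage list was 11.4 log2 units at E12 and 12.4 at E16, and that of the osteoclast list 10.7 and 11.5.

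Kcnj8, a potassium channel of pericytes, went from -4.48 to 0.80, 38.8-fold higher, the third largest among genes higher at E16 and well above background at both stages. A dimmer Kcnj8 probe gave 1.63, and other pericyte genes went both ways, Cspg4 (1.68) and Mcam (1.43) up and Pdgfrb (-1.22) down. Cartilage and tendon genes had 2 of 17 higher and 2 lower, with Scx, the tendon factor (-2.44), and Col2a1, the cartilage collagen (-1.89), lowest. Glial genes held 3 of 13 higher, with S100b (2.74), Erbb3 (1.12) and Mbp (1.06) up and the defining factor Sox10 at -0.36. Neuron genes had 1 of 13 higher (7.69%, near the 4.91% of all genes), Isl1 (1.03). Of 5 adipose genes 1 was higher, Fabp4, by at least 3.90-fold (1.69).

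**Figure D4:**
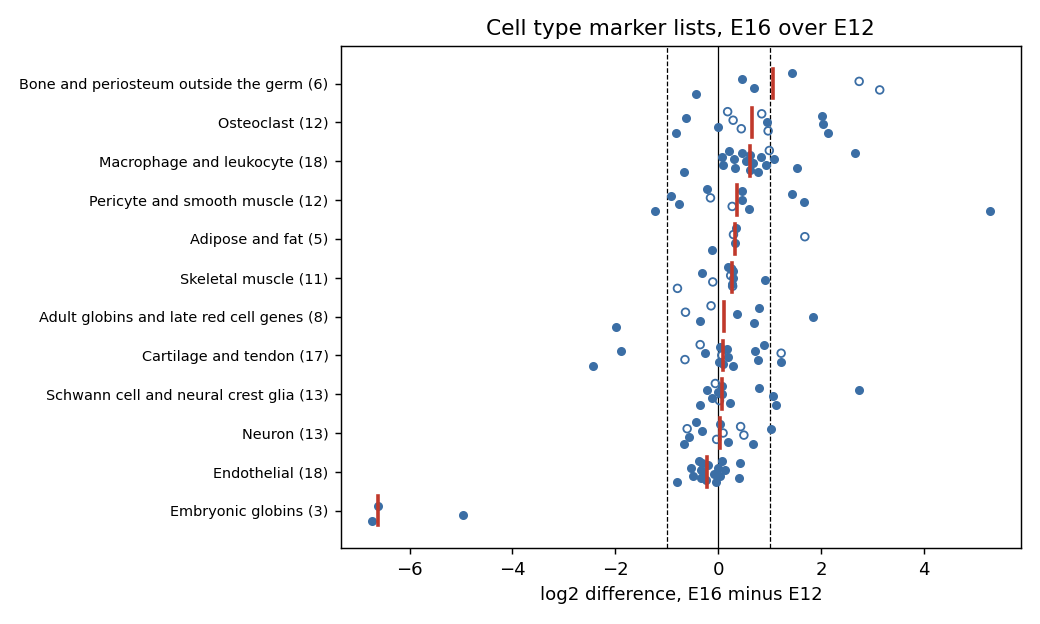
Log2 difference of E16 minus E12 (x axis) for the measured markers of 12 cell types, with the number measured in brackets, the median as a red bar, filled points for genes above background at both stages and open points for those at one. The embryonic globins lie at -4.97 to -6.73, all endothelial genes lie within 2-fold, and Kcnj8 stands apart from the other pericyte genes at 5.28.

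Immediate early and stress genes respond to handling of tissue as well as to signals. They were higher in 9 of 23 cases (39.13%, against 4.91% of all genes) and lower in none (median 0.81). Hspa1a, a heat shock protein, went from -1.09 to 1.60 (2.69), Junb from -1.87 to 0.29 (2.17), Fosl2 from -1.07 to 0.73 (1.79) and Egr2 from -4.18 to -2.43 (1.75). Their part in the other differences was not tested.

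Since E14 was on both arrays, each difference could be split into a step before and a step after the cap. The dyes were not swapped, so a dye effect of a gene would shift these steps in opposite directions. Its size was not measured. Of the 836 higher genes, 230 passed 2-fold from E12 to E14 alone, 217 from E14 to E16 alone, 47 in both steps and 342 in neither. Of the 259 lower genes 32, 101, 7 and 119 did. The step after E14 was the larger one in 434 of the higher genes and 185 of the lower ones. This order depends on the centring: with median centring the later step was larger in 741 higher and 27 lower genes, and with scanner ratios in 367 and 191. The placing of single genes shifts with the scaling too. E14 was in Cy3 on every array, so a level that differs at E14 from both neighbours cannot be told apart from a dye effect. That was so for 70 genes at least 2-fold above both stages at E14, Egr2 and Egr1 among them (Egr1 -3.32 at E12 and -1.64 at E16), and for 5 genes at least 2-fold below.

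**Figure D5:**
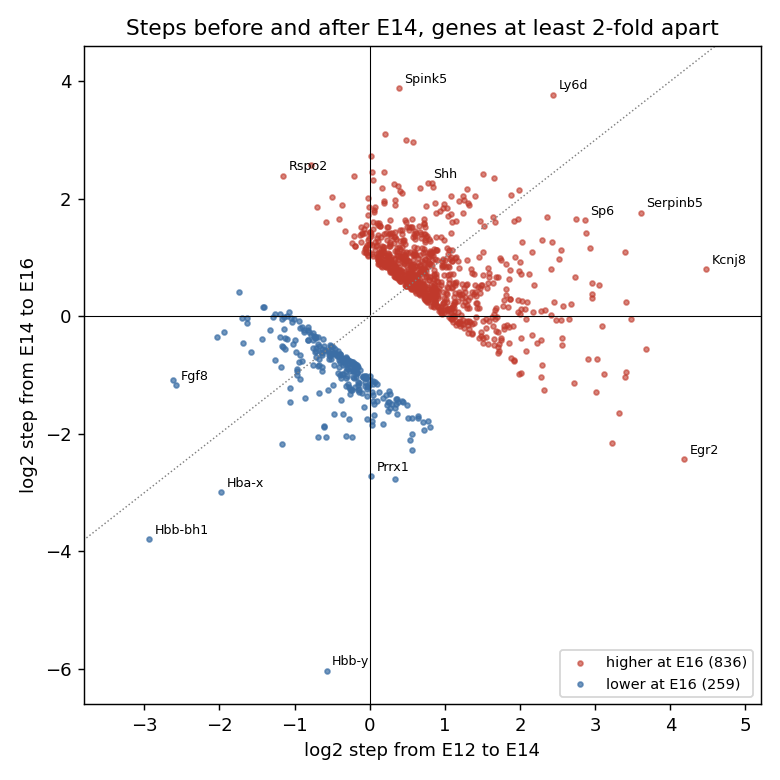
Log2 step from E12 to E14 (x axis) against the step from E14 to E16 (y axis) for the 836 genes higher (red) and 259 genes lower (blue) at E16 by 2-fold or more. The dotted line marks equal steps. With the loess ratios plotted, Kcnj8 and Sp6 rose mainly before E14, Ly6d and Spink5 mainly after it, Hbb-y fell after it and Fgf8 mainly before it. The dyes were not swapped, so each placing also holds any dye effect of the gene.

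The probes of the genes furthest apart lie, on build mm7 of the file headers, on chromosome 15 at 74842671 to 74842730 for Ly6d, on chromosome 1 at 106781864 to 106781923 for Serpinb5, on chromosome 11 at 97133587 to 97133646 for Sp6, on chromosome 7 at 99898179 to 99898238 for Hbb-bh1 and on chromosome 19 at 45633777 to 45633836 for Fgf8. Whether they lie in coding exons or elsewhere in the transcripts was not analysed here.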

How the data were processed

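Per the file headers, Agilent Feature Extraction 10.5.1.1 read the arrays. The authors deposited each spot's intensity (mean signal and local background, linear scale) and a log10 ratio of Cy5 over Cy3. The deposited value table repeats that log10 ratio (100% of values matched, column medians 0). From the intensity values, limma 3.58.1 in R 4.3.3 gave log2 ratios: normexp with offset 50, then loess with control spots at weight 0. Outlier spots (115 at E12, 107 at E16) were left out, no spot was saturated, and repeat spots were averaged. The offset compresses the ratios of dim genes. In Cy5, 59.0% of probes were well above background at E12 and 57.8% at E16.

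A gene took its brightest member probe, and names came from RefSeq (GRCm38.p6) for 11269 genes by accession, 1781 by symbol and 879 by synonym, while 3102 kept the array's name. No test was possible. Bounds and the comparison of E14 readings used single channels after Aquantile. The difference step was tested on simulated data. Members, lists and rules were chosen with earlier results of these data known. Named genes were the 12 highest and 12 lowest, 6 bounds in either direction, up to 4 members at the ends of each list and a set of markers; any other was chosen after its values were seen, as were the promoters shown and Egr1, Ivl, Tgm3, Myod1, Ckm and Ttn. Some genes of these rules are not reported here.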

Additional observations from a re-analysis of the deposited data

How the results depend on the processing

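No paired analysis was possible because each stage was 1 pool on 1 array. At 1.5-fold 3028 genes differed and at 4-fold 204. Scanner ratios, which carry no offset, gave 3631 genes (2026 higher, 1605 lower, 55.8% higher), the deposited values 3632 genes (2025, 1607, 55.75%), and an offset of 10 gave 1877 (1355 and 522). Median centring gave 624 lower genes and 58.6% higher. Leaving out background correction, reading Cy5 alone, asking for both stages above background, no filter and mean probes kept the total within 1.5 times, between 895 and 1446. All 1095 genes kept their sign with another background correction, offset, centring or probe rule and with scanner or deposited ratios, and 1093 with Cy5 alone. Besides the ribosomal and red cell lists, the median of the Schwann cell list turned with scanner ratios (0.07 to -0.03) and that of the neuron list with both stages above background (0.03 to -0.15). The cause was not tested. With 1 array per stage, signal over background limits dim genes, whose differences are bounds.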

Other observations

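These gene families were chosen after their values were seen. The S100 calcium-binding proteins were at least 2-fold higher at E16 in 11 of 12 measured members, against 4.91% of all genes. None was lower, and they ran from 0.60 for S100a8 to 4.30 for S100a14, with S100a6 at 3.65 and S100a4 at 3.42. Among enzymes of retinoic acid, 4 single genes were picked and the rest of the group was not counted: the synthesis gene Aldh1a3 was higher at E16 (3.29) and Aldh1a2 lower (-1.65), and the breakdown gene Cyp26a1 was higher (2.54) and Cyp26b1 lower (-3.33).

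Neighbouring genes of the mineral and matrix families were read in RefSeq order. On chromosome 13, Aspn (2.29), Omd (3.95) and Ogn (4.10) lie side by side and were all higher at E16, whereas the genes that flank them, Cenpp (0.01) and Nol8 (-0.28), were not; Ecm2, between Cenpp and Aspn, was not among the measured genes. On chromosome 5, Dspp, Dmp1, Ibsp and Spp1 were higher and Mepe, between Ibsp and Spp1, stood at 0.12. Of their flanks, Sparcl1 beside Dspp was higher too (1.70) and Pkd2 beside Spp1 was at -0.18. On chromosome 10, Dcn (2.30) and Lum (1.41) were higher, and the next genes of the same family, Kera (-0.25) and Epyc (0.34), were under 2-fold. The 120 bases before the starts of Omd and Ogn (RefSeq, build GRCm38.p6, chr13:49582342-49582461 and chr13:49607895-49608014, plus strand) are shown because these neighbours rose together, with ATAAA or its reverse complement in capitals.
Omd: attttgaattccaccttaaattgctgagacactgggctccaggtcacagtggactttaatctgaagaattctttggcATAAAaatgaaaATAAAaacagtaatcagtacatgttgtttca
Ogn: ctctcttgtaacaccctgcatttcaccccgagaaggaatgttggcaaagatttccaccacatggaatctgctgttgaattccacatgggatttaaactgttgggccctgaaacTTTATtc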
